A study of Mus musculus with 7 samples.

Results

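High glucose is the stimulus to which podocytes, the epithelial cells that wrap the capillaries of the kidney's filter, are exposed in diabetes. The comparison described here is that of differentiated, conditionally immortalised mouse podocytes in normal glucose (NG) and in high glucose (HG+NT), by DNase-Seq. The medium of the NG cells held 5 mM glucose, and that of the HG+NT cells held 25 mM, with a mimic that targets no transcript (NT) transfected at 50 nM. Both were kept so for 36 h, after growth had been arrested in medium with less serum. The comparison took up 4 of the 7 samples of the series, 2 replicates per condition, and 1 sample of genomic DNA served as input to both. The replicates of a condition were deposited as 1 joint list of peaks, so no spread between replicates was at hand and no difference between NG and HG+NT was tested. The labels name a mimic for the high-glucose cells and none for NG, and an effect of glucose and one of transfection cannot be told apart. The cells are a cultured line, so the values describe that line and not the podocytes of an animal.

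DNaseI cuts DNA where nucleosomes have given way to transcription factors, and the promoters of active genes are among the sites it reaches best. A promoter that opens or closes under a stimulus can change its sensitivity without any change of position. In diabetic podocytes the processes most studied are deposition of matrix under TGF-beta, loss of the response to insulin, altered mitochondria, stress of the endoplasmic reticulum and inflammatory signalling through NF-kB.

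A promoter was 500 nt on either side of a transcription start site (TSS) of a protein-coding gene. Of 21911 such genes, 21810 had a promoter peak in both lists, and 18152 of these lay on chromosomes other than 8, 15, 19, X and Y, which were set apart, the promoters of each having shifted together. The highest fold of a gene's promoter peaks over the local mean of the input was ranked as a percentile within its list, over the 18152 genes. The fold is that at the summit of a peak overlapping the window, and the summit itself can lie outside. It lay inside the window at 61.2% of promoters in NG and 58.5% in HG+NT, and in both lists at 8256 of the 18152. A promoter is said to have risen when its percentile was at least 25 points higher in HG+NT than in NG, and to have fallen when it was at least 25 points lower. Beside the fold stands the pileup, which is the number of fragments at the summit scaled to the depth of the input, and its 95% interval is exact for a Poisson count and takes in no other error. The depth was 2.24 times that of the input in NG and 3.85 times in HG+NT, a ratio of 1.72. The median promoter summit held 11 fragments in NG and 17 in HG+NT, so a single promoter was counted with a wide interval.

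Promoters at which both lists put the summit at nearly one position, within 150 nt and inside the window, and at which the pileup intervals lay apart, numbered 23. They were among 4048 promoters with such a shared position, and how many intervals would lie apart by counting error alone was not tested. The sequence under the HG+NT summit is shown for 4 of the 23 with a higher pileup in HG+NT, followed by 5 with a lower one. Each run is 30 bases around the summit, from GRCm38, written 5′ to 3′ on the strand of the gene, with the CpG dinucleotides in capitals.
*Cdkn2b*, minus strand, chr4:89310946-89310975: taccCGgCGtgagtCGtctgtgcCGgCGgt
*Ripk2*, minus strand, chr4:16163815-16163844: ggCGgagcCGgCGgagggaggagctggcag
*Khsrp*, minus strand, chr17:57031783-57031812: ggtggaactCGCGcttcattgggcctcctg
*Abtb1*, minus strand, chr6:88842079-88842108: gggaattgagttgtcctctagaCGggtggg
*Dcxr*, minus strand, chr11:120727171-120727200: gctggtcacCGgCGCGggcaaaggtgaggc
*Hnrnpu*, minus strand, chr1:178337716-178337745: tcttgcctCGCGaactCGgtgaaaggaatt
*Uaca*, plus strand, chr9:60794567-60794596: ccCGcaatctggtgggaaccCGgacccttg
*Spata2*, minus strand, chr2:167492871-167492900: cttCGtgCGtcacttcCGgaacaaatactt
*Zscan26*, minus strand, chr13:21453742-21453771: gCGgagcCGgaaactactgggctggaaCGc

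The HG+NT summit lay in an untranslated exon at *Cdkn2b*, *Hnrnpu*, *Uaca* and *Spata2*, in a coding exon at *Dcxr* and just outside the gene at the other 4. The runs of the 4 promoters with a higher pileup held 1 to 5 CpG and 17 to 24 G or C bases. Those of the 5 with a lower pileup held 2 to 3 CpG and 14 to 22 G or C bases, so the groups overlapped in both.

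Of the 18152 promoters, 3637 rose (20.0%) and 3585 fell (19.7%), and the median change was −0.04 points. These shares are the background against which each gene list below is read. Spearman's rho between the NG and HG+NT folds was 0.42 across promoters, which are not independent replicates and share the input, and it was 0.75 between the pileups. Promoters above the 90th percentile of NG had a median percentile of 82.9 in HG+NT (quartiles 58.0 to 94.1), and those below the 10th had one of 25.6 (quartiles 9.33 to 52.1). The pileup gave a tighter order, and its interval in HG+NT lay above that in NG at 110 promoters (0.606%) and below it at 333 (1.83%). The median pileup over all promoters was itself lower in HG+NT, at 4.41 against 4.91 in NG. No interval here or below was adjusted for that, so the excess of lower intervals does not show that more promoters closed than opened.

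**Figure D1:**
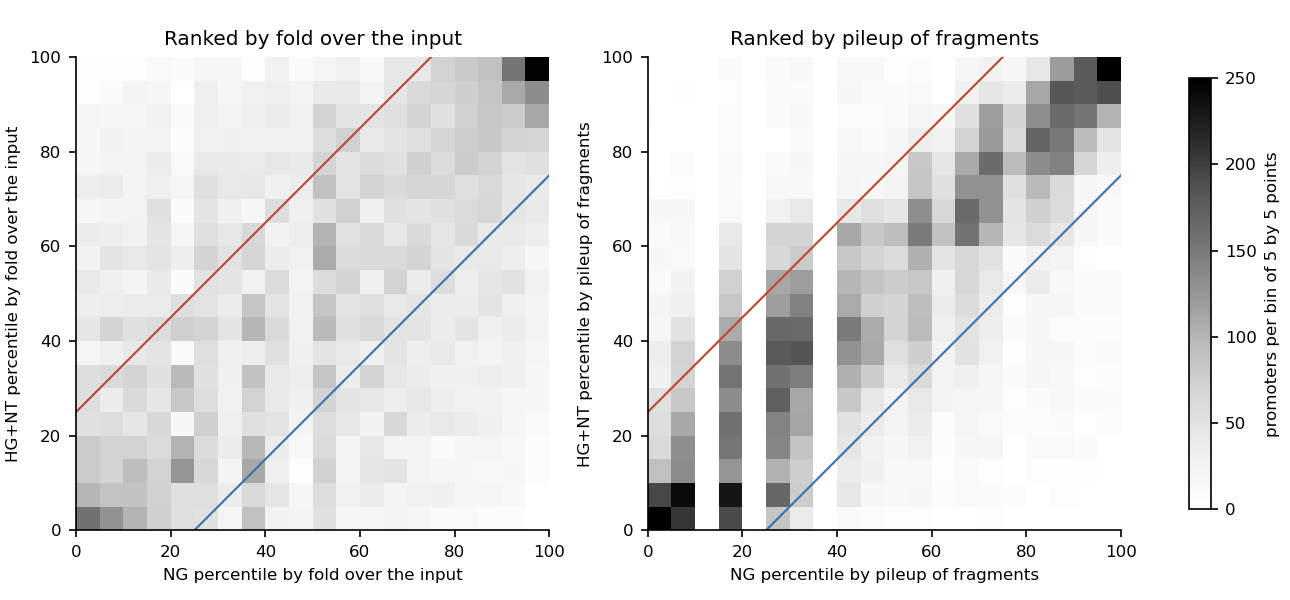
Percentile of each promoter in NG (horizontal axis) and HG+NT (vertical axis), by fold over the input (left, 18152 promoters) and by pileup (right, 18136 with a solution for the fragments), as the number of promoters per bin of 5 by 5 points; promoters above the red line rose and those below the blue line fell. The cloud lies closer to the diagonal by pileup (rho 0.75) than by fold (rho 0.42), and empty columns are percentiles that tied fragment counts left unused.

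The fold moved with both of its parts. At promoters that rose, the median number of fragments went from 9 to 18 and the median local mean of the input from 2.2 to 1.66, and the local mean was lower in HG+NT at 65.2% of them. At promoters that fell, the fragments went from 16 to 17 and the local mean from 2.16 to 3.0, and it was higher at 65.9%. Promoters that did neither had a local mean of 2.0 in both lists. Both lists were called against the same input, so the local mean describes the input around the chosen summit and not the digested chromatin. The pileup is a part of the fold, so some agreement between them is built in. Fold and pileup percentiles went the same way at 82.0% of the promoters that rose and 80.4% of those that fell. At promoters that did neither they did so in 69.0%. The pileup percentile itself changed by 25 points or more the same way at 1045 that rose and 974 that fell.

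At some promoters the summit kept its position. Both summits lay within the window and within 150 nt of each other at 4048 promoters, of which 523 rose (12.9%) and 802 fell (19.8%) on the scale of all promoters. Ranked among themselves, 16.7% rose and 16.2% fell, so the imbalance was not kept. For a gene below without one stated summit position, the fragments and local means of the lists can come from different sites. Where the local mean was also equal, at 1654 promoters, 148 rose (8.95%) and 254 fell (15.4%). The fragments there went from a median of 19 to 26, and the ratio of HG+NT to NG had a median of 1.45, with 0.945 to 2.29 at the 5th and 95th percentiles, beside the ratio of depths of 1.72.

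At a shared position, the pileup interval was higher in HG+NT at 10 promoters (0.247%) and lower at 13 (0.321%). Over all promoters these shares were 0.606% and 1.83%. These genes were chosen after their values had been seen. *Cdkn2b*, which encodes the cyclin-dependent kinase inhibitor p15 and is a known target of TGF-beta, had 11 fragments in NG and 48 in HG+NT, at an equal local mean of 1.8. Its NG pileup was 4.91 (95% interval 2.45 to 8.79) against 12.5 (9.19 to 16.5) in HG+NT, and its fold percentile went from 65.6 to 99.9. In HG+miR-93, the high-glucose cells given a miR-93 mimic, the percentile was 99.0 and the pileup 8.16 (5.88 to 11.0). The intervals of NG and HG+NT were therefore apart, while that of HG+miR-93 overlapped both.

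A pair of the genes belongs to the NF-kB route. *Relb*, a subunit of the non-canonical NF-kB dimer, had 26 fragments in NG and 89 in HG+NT and a pileup of 11.6 (7.59 to 17.0) and 23.1 (18.6 to 28.4). *Ripk2*, the kinase that links NOD receptors to NF-kB, had 27 and 89 fragments and rose from the 69.4 to the 99.6 percentile at an equal local mean of 5. *Relb* was already at the 76.6 percentile in NG and stood at 99.6 in HG+NT, short of the 25 points that define a rise. In HG+miR-93, *Relb* was at the 97.5 percentile with a pileup of 13.2 (10.3 to 16.8), and *Ripk2* was at 81.8 with a pileup of 13.99.

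The remaining promoters with a higher pileup have diverse roles. *Abtb1*, which encodes a protein with ankyrin repeats and BTB domains, went from 27 to 106 fragments at an equal local mean of 7 and from the 30.1 to the 99.0 percentile. *Khsrp*, an RNA-binding protein of mRNA decay and microRNA maturation, went from 35 to 106 fragments and was at the top of both lists, at the 98.5 and 99.99 percentiles. *Dact3*, an antagonist of Wnt signalling, went from 27 to 91 fragments and from the 18.4 to the 97.7 percentile. *Hdgfl2*, a reader of methylated histones, rose from 54.2 to 98.8, *Garnl3* went from 96.4 to 99.9, and *Casc1* and *Etfrf1*, which share a peak, rose from 10.7 to 82.6. Of the 10, 7 rose by fold, and the other 3, *Relb*, *Khsrp* and *Garnl3*, were high in NG.

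Among the 13 promoters with a lower pileup, 12 fell by fold. *Dcxr*, the reductase of dicarbonyls and L-xylulose, had 26 fragments in NG and 16 in HG+NT, a pileup of 11.6 (7.59 to 17.0) and 4.16 (2.38 to 6.75), and fell from the 79.7 to the 6.999 percentile. *Hnrnpu*, a nuclear RNA-binding scaffold protein, had 32 and 21 fragments and fell from 99.1 to 49.3. *Uaca*, a regulator of apoptosis, had 29 and 20 fragments and fell from 96.9 to 27.7. The absolute number of fragments was thus lower in HG+NT although that list was sequenced more deeply.

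Further promoters with a lower pileup have other roles. *Rtca*, the RNA terminal phosphate cyclase, had the highest NG pileup of the 23 promoters, at 31.3 (24.4 to 39.5), against 9.87 (6.98 to 13.5) in HG+NT, with 70 and 38 fragments. It went from the 99.98 to the 79.6 percentile, which is less than 25 points. *Paip2*, a repressor of translation that binds poly(A)-binding protein, fell from 87.2 to 8.32, and *Vps4b*, an ATPase of the ESCRT machinery, from 85.7 to 14.1. *Spata2*, an adaptor in TNF receptor signalling, fell from 98.3 to 52.1, and *Zscan26*, a zinc finger gene, from 98.9 to 43.8, with 23 and 15 fragments at an equal local mean of 2. In HG+miR-93, *Spata2* was at 94.96, *Hnrnpu* at 89.2, *Zscan26* at 85.7 and *Uaca* at 78.2, whereas *Dcxr* was at 21.7 and *Paip2* at 30.3.

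**Figure D2:**
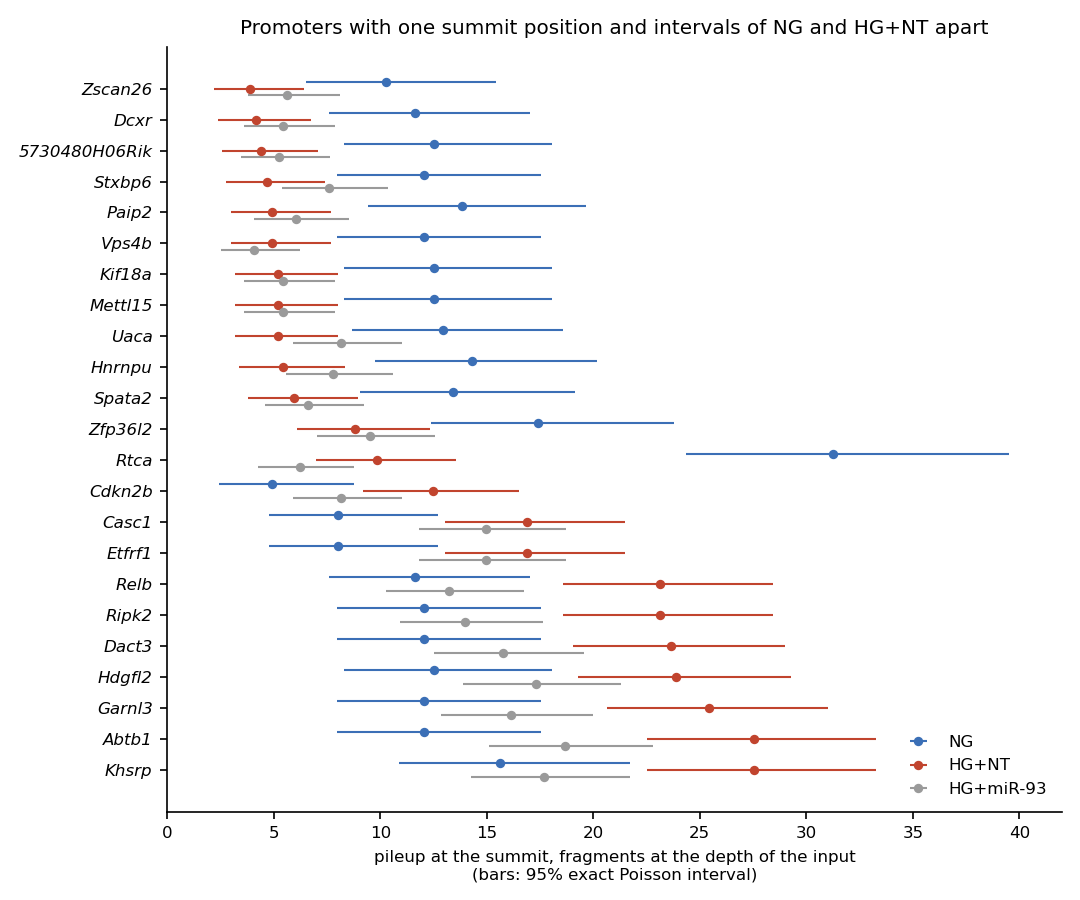
Pileup at the summit (horizontal axis, fragments at the depth of the input) in each condition for the 23 promoters with a shared summit position in NG and HG+NT and intervals apart; bars are 95% exact Poisson intervals. The lower 10 rows have a higher pileup in HG+NT than in NG and the upper 13 a lower one, with *Rtca* at 31.3 in NG the highest of all.

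The gene lists covered pathways of the diabetic podocyte, housekeeping complexes, tandem gene families and markers of other cell types. Their median changes went from 20.6 points for leukocyte marker genes to −19.3 for insulin signalling genes, beside −0.04 for all promoters. None of these shifts could be set against a spread between replicates. Median changes by pileup were smaller in most of the lists at the ends of this order, as the plot of the lists shows.

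**Figure D3:**
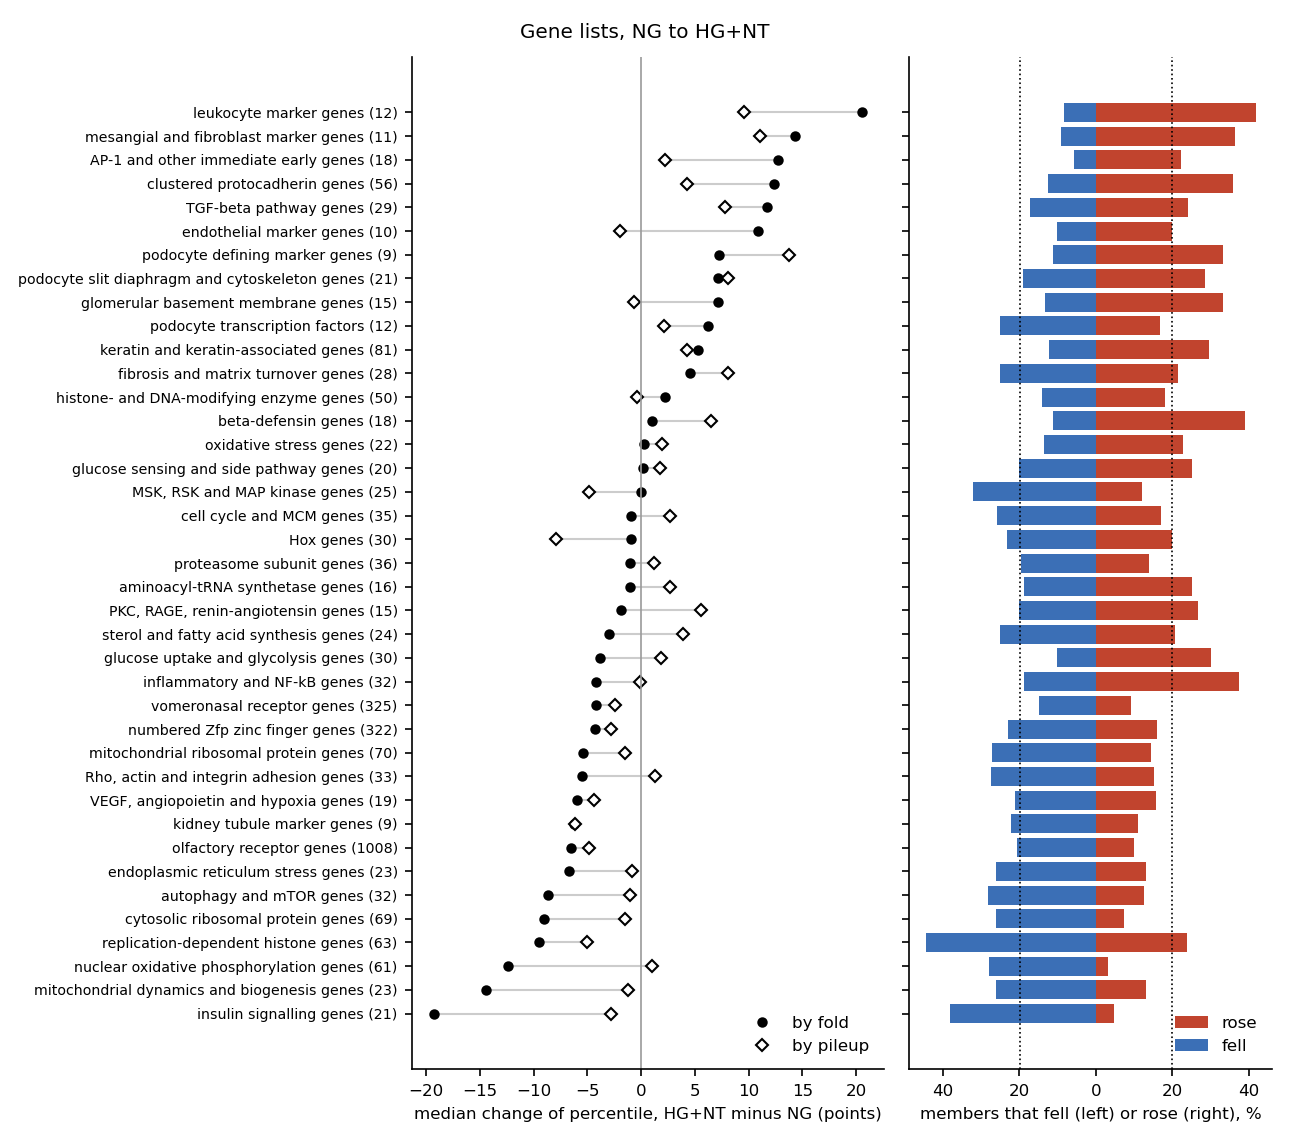
Gene lists with the number of members described in parentheses, ordered by the median change of percentile from NG to HG+NT in points (left, filled circles by fold, open diamonds by pileup) and with the share of members that fell or rose by fold (right). Dotted lines mark the shares over all promoters, 19.7% fell and 20.0% rose; insulin signalling genes lie at −19.3 points by fold and −2.76 by pileup.

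Insulin reaches podocytes through its receptor, the IRS adaptors, phosphatidylinositol 3-kinase and Akt, which phosphorylates FoxO factors and GSK3. Of 21 promoters of this pathway, 1 rose (4.76%) and 8 fell (38.1%). By any amount, 16 were lower in HG+NT, while the median change over all promoters was −0.04 points. Their median percentile went from 83.0 to 60.8, with a median local mean of 3.0 in both lists. *Pik3cb*, a catalytic subunit of phosphatidylinositol 3-kinase, fell from 92.5 to 13.8 with 24 and 28 fragments, while its local mean went from 3 to 6. *Akt1* fell from 82.5 to 11.3 with 20 and 27 fragments and a local mean of 3 and 6, at one summit position. *Foxo1* fell from 83.9 to 9.57 and *Grb10*, an adaptor that restrains the insulin receptor, from 92.8 to 29.3.

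For 3 members the pileup interval in HG+NT lay below that in NG, as it did at 1.83% of all promoters. *Pik3ca*, the other widely expressed catalytic subunit, fell from 76.6 to 32.3 with 28 and 10 fragments. *Foxo3* fell from 69.7 to 44.7 with 37 and 12 fragments, and *Pdpk1*, the kinase that activates Akt, went from 89.5 to 70.8 with 25 and 15. In each of these 3 the highest fold was at another summit in HG+NT, so the fragment counts are not from one site. *Tbc1d4*, an Akt substrate in the trafficking of GLUT4, fell from 71.7 to 30. *Pik3r1*, the main regulatory subunit, rose from 27.8 to 62.7, and *Gsk3b* and *Ptpn1*, the phosphatase that removes phosphate from the receptor, were high in both lists, at 94.3 and 99.7 for *Gsk3b*. By pileup the median change of the list was −2.76 points, beside 0.13 for all promoters. In HG+miR-93, *Akt1* stood at 78.5 and *Pik3cb* at 71.2, beside a median of 43.0 for all promoters that fell.

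Promoters of glucose uptake and glycolysis rose more often than all promoters and fell less often, with 9 of 30 (30%) and 3 (10%), yet the median change was −3.79 points. *Hk1*, the constitutive hexokinase, rose from 57.5 to 99.4 with 20 and 55 fragments. *Slc2a3*, the glucose transporter GLUT3, rose from 28.8 to 75.6, and *Tpi1*, the triose phosphate isomerase, from 7.26 to 58.2. *Pfkl*, the liver type of phosphofructokinase, fell from 96.2 to 30.7, *Pdk1*, a kinase that restrains pyruvate dehydrogenase, from 82.5 to 44.5, and *Pfkfb2*, which sets the level of fructose 2,6-bisphosphate, from 99.3 to 35.7. *Gapdh* was at 58.6 and 54.6.

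Of 20 promoters of glucose sensing and of the polyol, hexosamine and pentose phosphate pathways, 5 rose and 4 fell, with a median change of 0.16 points. *Akr1b3*, the aldose reductase that starts the polyol pathway, rose from 17.0 to 87.3 with 23 and 34 fragments and a local mean of 7 and 3.2. *Gfpt1* and *Gfpt2*, the entry enzymes of the hexosamine pathway, rose from 13.8 to 45.9 and from 36.5 to 89.8. *Rpia*, an isomerase of the pentose phosphate pathway, rose from 31.0 to 97.8 with 20 and 44 fragments. On the other side, *Mlx*, a partner of the glucose-responsive factor ChREBP, fell from 74.1 to 8.66, and *Khk*, the fructokinase, from 94.2 to 58.2 at an equal local mean of 3. *Glo1*, the glyoxalase that clears methylglyoxal, fell from 42.8 to 0.171, with 34 fragments in NG at a summit 11 nt from a TSS and 6 in HG+NT at a summit 3574 nt away, so no peak of higher fold overlapped its promoter in HG+NT. *Txnip*, a gene induced by glucose in many cells, was at 69.6 and 78.4 with 32 and 34 fragments.

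Mitochondrial genes lay lower in HG+NT by fold and nearly level by pileup. Of 61 nuclear genes of oxidative phosphorylation, 2 rose (3.28%) and 17 fell (27.9%), with a median change of −12.4 points by fold and 0.98 by pileup. The median local mean of this list went from 3.4 to 4.0, and its part in the result was not tested. *Ndufa10*, a subunit of complex I, fell from 99.0 to 15.3 with 30 and 24 fragments and a local mean of 2.8 and 5. *Sdhd*, an anchor subunit of complex II, fell from 93.9 to 5.80, and *Atp5b*, the catalytic beta subunit of the ATP synthase, from 68.9 to 11.0 at an equal local mean of 4. *Sdhb*, the iron-sulphur subunit of complex II, and *Ndufs4*, of complex I, were the 2 that rose, from 3.70 to 37.9 and from 2.45 to 34.3.

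Among 23 genes of mitochondrial dynamics and biogenesis, 3 rose and 6 fell, with a median change of −14.4 points by fold and −1.18 by pileup. *Mief2*, a receptor of the fission GTPase, fell from 87.6 to 11.3 with 23 and 27 fragments and a local mean of 3.2 and 6. It shares its peak with *Flii*. *Mfn1*, a fusion GTPase, fell from 76.9 to 35.2, and *Nrf1* and *Gabpa*, regulators of nuclear genes for mitochondria, from 94.8 to 58.9 and from 82.2 to 49.8. *Phb2*, a prohibitin, rose from 28.0 to 93.7 with 19 and 37 fragments. *Dnm1l*, which encodes the fission GTPase itself, was low in both lists by fold, at 9.28 and 27.4. Its pileup percentile went from 3.42 to 69.9, with 5 and 23 fragments at summits 632 nt apart.

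Ribosomal protein genes went the same way as the respiratory chain. Of 69 cytosolic ones, 5 rose (7.25%) and 18 fell (26.1%), with a median change of −9.05 points by fold and −1.5 by pileup. Of the 32 with one summit position, none rose and 8 fell, beside 12.9% and 19.8% of all promoters of that kind. *Rpl37a* fell from 64.4 to 8.88 with 21 and 17 fragments at an equal local mean of 4. Of 70 mitochondrial ones, 10 rose and 19 fell (27.1%), with *Mrpl10* falling from 99.7 to 27.4 and *Mrpl17* rising from 13.7 to 93.5. *Mrpl10* shares its peak with *Lrrc46*. Of 63 replication-dependent histone genes, 15 rose (23.8%) and 28 fell (44.4%), and many of their promoters lie in dense clusters and share near-identical sequence.

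TGF-beta signals through type I and type II receptors to Smad factors and drives matrix deposition in the diabetic kidney. Of 29 promoters of this pathway, 7 rose (24.1%) and 5 fell (17.2%), with a median change of 11.7 points by fold and 7.85 by pileup. The median local mean was 3.0 in both lists, and when the folds of all peaks at a promoter were summed the median change was −0.264. Among ligands, *Tgfb3* rose from 3.60 to 73.3 with 14 and 16 fragments and a local mean of 6 and 1.5, *Tgfb1* was at 84.3 and 67.3, and the BMP ligands *Bmp4* and *Bmp7* fell from 52.9 to 1.49 and from 67.8 to 22.8. Among receptors, *Bmpr1a* rose from 28.3 to 90.3 with 7 and 34 fragments, *Acvr2b* from 58.6 to 93.0 and *Acvr2a* from 17.4 to 58.8.

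The Smad genes were split. *Smad3*, the main mediator of the fibrotic response, fell from 79.3 to 41.5 although its fragments went from 14 to 33, with a local mean of 2 and 5. *Smad9*, of the BMP branch, rose from 67.3 to 95.4, and *Smad5* rose from 9.19 to 34.8. Of 3 inhibitors looked at after their values had been seen, none passed 25 points. *Smad7*, the inhibitory Smad, was at 67.8 and 88.9, *Ski* at 82.5 and 97.9 and *Skil* at 83.2 and 97.8, the latter pair being corepressors of Smads. In HG+miR-93, *Smad7* was at 21.9, *Ski* at 82.0 and *Skil* at 77.1.

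**Figure D4:**
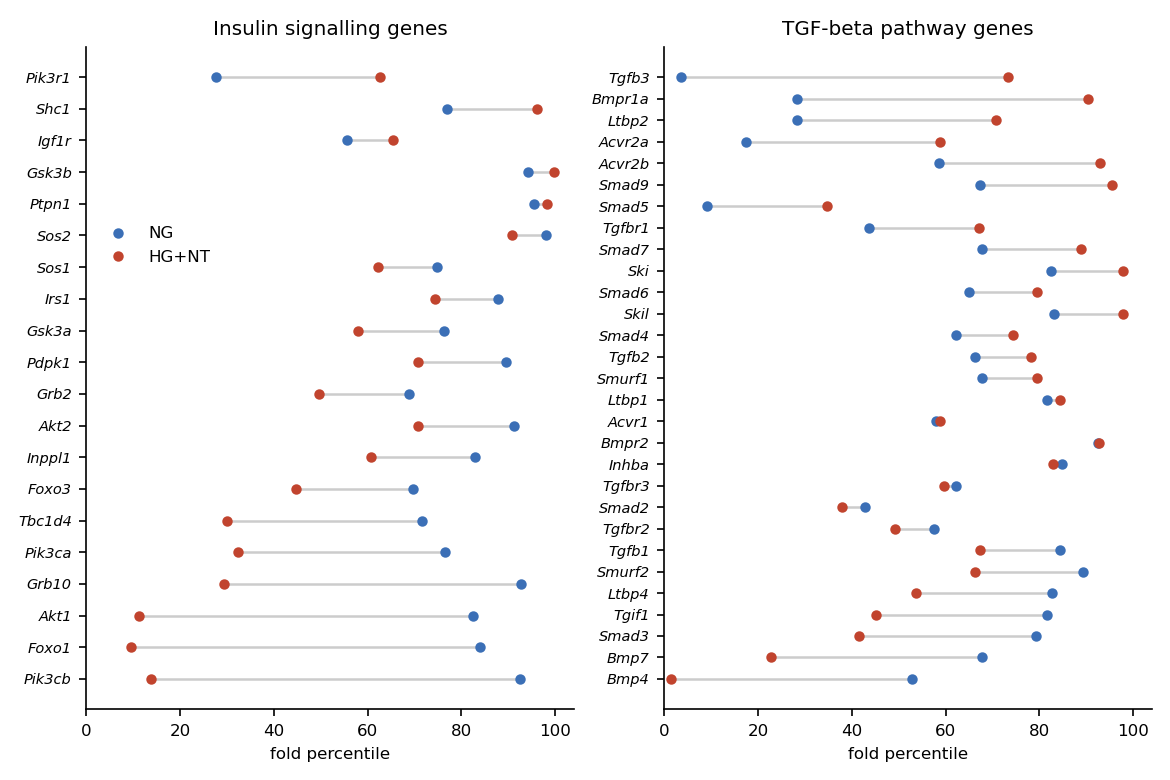
Fold percentile in NG (blue) and HG+NT (red) of the described insulin signalling genes (left, 1 not shown) and TGF-beta pathway gene (right), ordered by the change. Most insulin signalling genes lie lower in HG+NT (16 of 21), with *Pik3cb* going from 92.5 to 13.8, while *Tgfb3* went from 3.60 to 73.3.

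Of 15 genes of the glomerular basement membrane, the matrix sheet that podocytes share with the endothelium, 5 rose and 2 fell. *Lamc1*, the gamma chain of its laminins, rose from 18.2 to 97.9 with 14 and 37 fragments, and *Hspg2*, which encodes perlecan, from 28.8 to 94.3 with 12 and 27. *Agrn*, the heparan sulphate proteoglycan agrin, rose from 52.9 to 81.9 and *Sparc* from 65.8 to 94.3. *Lamb2*, the beta chain of the mature laminin, fell from 84.3 to 52.4 and *Nid1*, nidogen, from 62.2 to 32.3. The collagen IV genes *Col4a3* and *Col4a4*, which share a head-to-head promoter and a peak, stayed at 84.3 and 83.5. The median change of this list was 7.12 points by fold and −0.68 by pileup. *Col4a1*, on chromosome 8, fell from 80.0 to 37.7. Its summits lay in an intron, 536 nt apart, and the HG+NT one was 680 nt from a TSS.

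The matrix and fibrosis genes were divided, with 6 of 28 rising and 7 falling and a median change of 4.56 points. *Thbs1*, the thrombospondin that activates latent TGF-beta, rose from 31.0 to 99.2 with 20 and 39 fragments. *Plod2* and *P4ha1*, hydroxylases of collagen lysine and proline, rose from 40.3 to 97.3 and from 54.2 to 83.1. *Lox*, the collagen cross-linking oxidase, fell from 86.4 to 11.6, *Spp1*, osteopontin, from 75.8 to 6.73 and *Timp3*, an inhibitor of metalloproteinases, from 82.5 to 37.6. *Ccn2*, a growth factor induced by TGF-beta, rose from 19.2 to 93.5 with its summits 945 nt apart, a change that came to 2.82 points with summed folds, and *Fn1*, fibronectin, was at 86.4 and 98.7.

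Podocytes are defined by the slit diaphragm, a junction between foot processes built on nephrin, and by the actin of these processes. Of 9 described defining markers, 3 rose and 1 fell, with a median change of 7.23 points by fold, and 6 were higher in HG+NT and 3 lower. *Nphs1*, nephrin, was low in NG at 9.69 with 9 fragments and rose to 57.4 with 17, from summits 2233 nt apart, and it shares its peak with *Kirrel2*. *Synpo*, synaptopodin of the foot process, was high in both, at 91.0 and 97.1. *Cd2ap*, an adaptor of nephrin, rose from 43.7 to 84.0 with 18 and 40 fragments at an equal local mean of 4, and *Ptpro*, the podocyte phosphatase, from 36.5 to 80.0. *Podxl*, podocalyxin, fell from 90.3 to 14.1 with 13 and 19 fragments, its local mean being 1.43 and 4, but these summits lay 6925 nt apart and its pileup percentile changed by 1.26 points. The defining markers were therefore not uniformly among the most open promoters of these cultured cells.

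Among transcription factors of podocytes, 2 of 12 rose and 3 fell. *Lmx1b*, a factor needed for podocyte differentiation, rose from 50.0 to 75.9 and *Sox4* from 43.7 to 80.7. *Zhx3*, *Tead1* and *Klf15* fell, from 80.0 to 17.9, from 91.0 to 45.6 and from 69.9 to 37.2. The pileup interval lay below that of NG at *Zhx3* and *Tead1*, as at 1.83% of all promoters. They had 25 and 8 and 32 and 14 fragments, in both cases from another summit in HG+NT.

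Markers of other cell types were also present, with a median percentile per list of 32.8 to 46.3 in NG and 42.5 to 61.2 in HG+NT. The podocyte defining markers had medians of 45.3 and 78.9. Of 12 leukocyte markers, 5 rose and 1 fell, with median percentiles of 32.8 and 57.3 and none with a summit at one position in both lists, and their median change of 20.6 points was −0.508 with summed folds. *Cd4* rose from 36.5 to 89.8 with 7 and 19 fragments and *Cd79a* from 8.34 to 65.7 with 6 and 15. Of 11 mesangial and fibroblast markers, 4 rose and 1 fell, with *Pdgfrb*, the PDGF receptor, going from 25.5 to 95.2. Of 10 endothelial markers 2 rose and 1 fell, and of 9 tubule markers 1 rose and 2 fell. Peaks were thus listed at promoters that podocytes are not known to use, and their part in the changes was not tested. The median pileup of the leukocyte markers was 3.13 in NG and 3.9 in HG+NT, below the 4.91 and 4.41 of all promoters. In cultured cells measured in bulk, fewer cells with an open site and less cutting per cell cannot be told apart.

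Of 32 inflammatory and NF-kB genes, 12 rose (37.5%) and 6 fell (18.8%), although the median change was −4.22 points. The toll-like receptors *Tlr2* and *Tlr4* rose from 44.2 and from 45.3 to 98.1 in both cases, with 14 and 10 fragments in NG and 26 in HG+NT. *Stat3*, the transducer of interleukin 6, rose from 42.9 to 98.0 with 30 and 57 fragments, and *Tnf* rose from 50.0 to 87.9. The chemokines *Ccl2*, *Ccl5*, *Cxcl2* and *Cxcl10* rose, with *Ccl2* going from 32.1 to 69.3 and *Cxcl10* from 19.2 to 88.8. *Rel* rose from 33.2 to 79.4 and *Nfkbib*, an inhibitor of NF-kB, from 7.26 to 67.1, the latter at a peak shared with *Sirt2*. *Nfkbia*, the inhibitor that NF-kB itself induces, fell from 78.8 to 35.0, and *Socs3*, *Irf1* and *Irf3* fell from 85.7 to 21.5, from 73.2 to 21.3 and from 82.8 to 27.6. In each of these 4 that fell, the fragments went up by less than the depth and the local mean was higher in HG+NT.

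Endoplasmic reticulum stress is sensed by PERK, IRE1 and ATF6. *Eif2ak3*, which encodes PERK, rose from 17.4 to 95.2 with 20 and 60 fragments, a local mean of 6 and 5, and a pileup of 8.93 (5.46 to 13.8) and 15.6 (11.9 to 20.1). *Eif2s1*, the translation factor that PERK phosphorylates, rose from 19.8 to 83.1, and *Pdia4*, a disulphide isomerase, from 5.79 to 93.5 with 26 and 59 fragments and a local mean of 10 and 5.2. These were the 3 of 23 that rose, and 6 fell. *Ppp1r15a*, the subunit of the phosphatase that reverses the action of PERK, fell from 88.0 to 35.6 with 28 fragments in both lists. *Xbp1*, the factor that IRE1 splices, fell from 85.7 to 45.7 with 27 and 18 fragments. The median change was −6.71 points. In HG+miR-93, *Eif2ak3* stood at 97.8 and *Pdia4* at 95.1.

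Of 32 autophagy and mTOR genes, 4 rose and 9 fell, with a median change of −8.69 points. *Mtor* fell from 87.0 to 5.99 with 19 and 31 fragments and a local mean of 2.6 and 8, and *Becn1*, beclin, from 68.9 to 21.9. *Rheb*, the GTPase that activates mTOR, rose from 30.7 to 75.5 with 31 and 61 fragments. *Wipi1*, a phosphoinositide-binding protein of the autophagosome, rose from 4.88 to 98.7, and its pileup interval lay above that of NG, with 25 and 83 fragments at different summits.

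AP-1 and other immediate early genes, which answer growth factor and stress kinases within minutes, were high in both lists, with median percentiles of 74.1 and 86.5. Of 18, 4 rose and 1 fell, and 14 were higher in HG+NT, with a median change of 12.7 points by fold and 2.25 by pileup. *Srf*, the serum response factor, rose from 33.2 to 75.2, *Btg2* from 58.2 to 93.5 and *Klf4* from 43.7 to 84.6. *Egr2* fell from 78.8 to 51.5 at an equal local mean of 5, with a pileup of 13.4 (9.04 to 19.1) and 9.35 (6.55 to 12.9). In HG+miR-93 it stood at 99.95 from another summit, with a local mean of 2 and a pileup of 10.9 (8.22 to 14.1). *Fos* rose from 46.8 to 75.1 by fold with 27 and 38 fragments and a local mean of 6 and 4.2, at summits 236 nt apart. Its pileup went down from 12.1 to 9.87. *Jun* was at 80.0 and 93.5, and *Junb*, on chromosome 8, was at 90.5 and 78.5.

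MSK1 and MSK2 are nuclear kinases that phosphorylate histone H3 downstream of MAP kinases. *Rps6ka5*, which encodes MSK1, was at 88.0 in NG and 99.95 in HG+NT, with 28 and 71 fragments. *Rps6ka4*, which encodes MSK2 on chromosome 19, was at 89.7 and 84.7. Of the 25 described kinases of these cascades, 3 rose and 8 fell (32%), while the median change was 0.03 points. *Mapk9* fell from 90.7 to 37.8 and *Map3k7*, which encodes TAK1, from 69.3 to 3.15. *Mapk14*, which encodes p38 alpha, rose from 4.50 to 54.3 with 27 and 43 fragments and a local mean of 11 and 5.8.

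The actin and adhesion genes gave 5 rises and 9 falls among 33. *Limk1*, the LIM kinase that inactivates cofilin, rose from 58.7 to 95.7 with 34 and 82 fragments at an equal local mean of 7. *Vcl*, vinculin of focal adhesions, rose from 58.1 to 91.9 with 9 and 55 fragments from different summits, and its pileup interval lay above that of NG. *Rock1*, a kinase of actomyosin contraction, rose from 64.8 to 91.8. *Pxn*, paxillin, fell from 93.1 to 8.66 with 17 and 21 fragments and *Ezr*, ezrin, from 96.2 to 28.5. *Snai2*, a repressor of epithelial genes, fell from 77.8 to 8.88 with 19 and 17.

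Of 22 oxidative stress genes, 5 rose and 3 fell, with a median change of 0.25 points. *Cat*, catalase, fell from 97.9 to 16.3 and *Sod2*, the mitochondrial superoxide dismutase, from 94.2 to 41.3, while *Txn1*, thioredoxin, rose from 42.9 to 74.4 with 30 and 44 fragments. Of 19 VEGF and hypoxia genes, 3 rose and 4 fell. *Epas1*, the hypoxia factor HIF-2 alpha, fell from 55.5 to 5.80 with 24 and 19 fragments at an equal local mean of 5, and *Vegfa*, the growth factor that podocytes supply to the endothelium, was at 17.9 and 11.3. *Nrp2*, a coreceptor of VEGF, rose from 44.2 to 89.1. Of 15 genes of protein kinase C, the receptor for glycation products and the renin-angiotensin system, 4 rose and 3 fell, with *Prkce* rising from 41.1 to 88.3 and *Agtr1b*, an angiotensin receptor, falling from 66.2 to 24.1 with 12 fragments in both lists.

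Cell cycle genes gave 6 rises and 9 falls among 35. Among kinase inhibitors, *Cdkn1a*, which encodes p21, rose from 42.3 to 88.6, *Cdkn1c*, which encodes p57, from 19.2 to 68.7 and *Cdkn2d*, which encodes p19, from 7.68 to 75.5 with 25 and 69 fragments. *Ccne1* and *Ccnb2*, cyclins of the start of replication and of mitosis, fell from 89.4 to 21.8 and from 50.0 to 2.20. *Mcm2* fell from 31.0 to 0.78 and *Mcm3* rose from 10.2 to 49.3, both being subunits of the replicative helicase. *Mcm7*, another subunit, whose gene hosts miR-93, was at 83.6 and 72.8, and it shares its peak with *Ap4m1*.

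Among the 10 largest rises with one summit position, a like direction by −log10 p and by pileup and 1 solution for the fragments were those of *Pdia4*, *Vps26c*, *Mrpl17*, *Tuba8*, *Dact3*, *Ckmt2*, *Ttbk2*, *Eif2ak3* and *Polr2i*. *Polr2i* shares its peak with *Tbcb*. *Vps26c*, a subunit of the retriever complex of endosomal recycling, rose from 2.997 to 85.0 while its local mean went from 14 to 5.8 and its pileup percentile only from 97.6 to 98.2. A large rise in fold could therefore occur at a promoter whose pileup kept its rank.

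The largest falls under the same conditions were those of *Naa16*, *Ndufa10*, *Sec23b*, *Higd2a* and *Nop16*, which share a peak, *Ccdc97*, *Csnk1d*, *Fbxl19*, *Paip2* and *Asb1*. *Csnk1d*, casein kinase 1 delta of the circadian clock, fell from 95.3 to 14.4 with 26 and 33 fragments and a local mean of 3 and 7. *Sec23b*, a coat protein of vesicles that leave the endoplasmic reticulum, fell from 87.4 to 5.44 with 30 fragments in both lists and a local mean of 4.4 and 8. *Paip2* alone of these 10 had pileup intervals that lay apart, at 13.9 (9.41 to 19.7) and 4.93 (2.97 to 7.71), with an equal local mean of 4.6.

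Olfactory and vomeronasal receptor genes, which serve sensory neurons, give a further background. Of 1008 olfactory receptor promoters, 100 rose (9.92%) and 207 fell (20.5%), with median percentiles of 36.5 and 24.1. Of 325 vomeronasal receptor promoters, 30 rose and 48 fell. Clustered protocadherins, adhesion genes in tandem arrays on chromosome 18, went the other way, with 20 of 56 rising (35.7%) and 7 falling and a median change of 12.4 points. The median local mean was at the background of 1.43 in both lists for each of these 3 families.

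Promoters on chromosomes 8, 15, 19 and X rose in larger shares than the rest. By chromosome, 37.9% of 1035 promoters on 8, 39.9% of 780 on 15, 34.5% of 714 on 19 and 38.0% of 947 on X rose, with median changes of 14.1, 17.1, 11.6 and 14.1 points, or of 4.52, 5.54, 3.09 and 5.53 with summed folds. On Y, 40.7% of 182 fell, with a median change of −13.6 points by fold and −60.0 by pileup. The other chromosomes had medians from −2.99 on chromosome 13 to 5.71 on chromosome 6, where 25.6% of promoters rose and 15.8% fell. *Abtb1*, *Pdia4*, *Eif2ak3*, *Tuba8*, *Rpia* and the pair *Casc1* and *Etfrf1* lie on chromosome 6, and their percentiles went up by 66.9 to 87.7 points. These genes were named for large rises or higher pileups, so standing above the median of 5.71 for that chromosome was set by the choice.

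**Figure D5:**
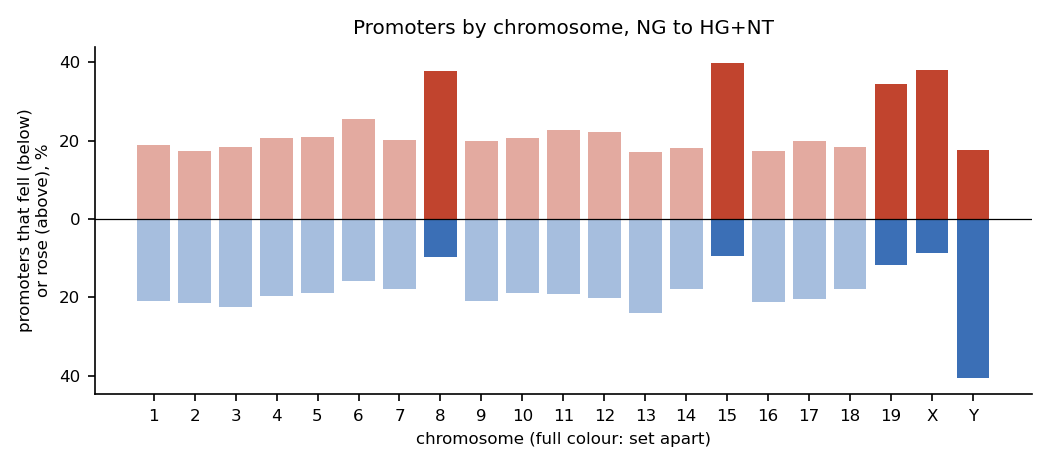
Share of promoters that rose (above the axis) or fell (below) from NG to HG+NT on each chromosome, in percent; full colours mark the chromosomes set apart. Chromosome 15 has 39.9% rising and 9.36% falling, while on Y 40.7% fell.

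GC content and motifs were compared as a description of the promoter windows. In 5 groups of like size by the GC content of the window, 11.8% of promoters rose in the poorest one (26.7% to 45.2% GC) and 22.9%, 23.8%, 22.7% and 19.1% in the others, while the shares that fell were 20.3%, 17.8%, 20.4%, 20.3% and 20.1%. The median ratio of observed to expected CpG was 0.479 where promoters rose, 0.601 where they fell and 0.521 over all. The GC box GGGCGG was present on either strand of the 1001-bp window in 60.2% of promoters that rose, 61.7% of those that fell and 58.4% of all. The ETS motif CCGGAAGT was present in 5.77%, 8.03% and 6.81%, and the TATA box TATAAA in 28.4%, 32.2% and 32.1%. The AP-1 motif TGANTCA was present in 19.5%, 18.9% and 19.6%, and the cyclic AMP motif TGACGTCA in 3.19%, 3.43% and 3.18%. The CCAAT box was found in 69.0%, 68.5% and 70.1%, the E-box CACGTG in 16.1%, 18% and 16.6%, and the palindromic NRF1 motif in 1.62%, 1.95% and 1.68%. A match says only that the letters are present in the window.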

How the data were processed

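DNase-Seq libraries of podocytes in NG and HG+NT, 2 replicates each, and 1 library of genomic DNA served here, with the list of HG+miR-93 set beside them. Reads were trimmed by the authors and aligned by Bowtie to mm10 (GRCm38). Duplicates were taken out, and MACS2 called the peaks with the genomic DNA as control. The submitters' processing notes also name CASAVA 1.8.2. The deposited lists pool the replicates of a condition. Their columns hold the authors' fold, −log10 p and q values, and an integer score. The fold was read as the depth-scaled fragments at the summit plus 1, over the input's local mean plus 1. The deposited score and q values were not used, and no column of another series was present. The lists hold 1036304 NG and 846027 HG+NT peaks, down to a listed p of 0.9, so that being listed is no call.

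Fragments and local mean were solved from fold and p, with a single solution for 99.99% of peaks and none for 63 NG and 34 HG+NT peaks. The method was tested on simulated peaks. TSSs were those of 54298 protein-coding transcripts of GENCODE vM21, and 27 duplicate symbols were left out. A peak counted for a promoter from an overlap of 1 bp. Folds of the chromosomes set apart were placed on the percentile scale of the others. Sequences came from the reference genome of the same build. Intervals assume independent fragments and cover counting error only. Python 3.11.15 was run with pandas 2.3.3, scipy 1.17.1, numpy 2.4.6, pysam 0.24.0 and matplotlib 3.10.9.

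The members, gene lists and thresholds were chosen with earlier results of these data known. The genes named by rule were a fixed set of 21 from the study's themes, the 10 largest rises and 10 largest falls with summits within 150 nt of each other inside the window, a single solution and like directions by −log10 p and pileup, and, per list, the member with the largest rise and fall of at least 25 points under these conditions. Other members were named after their values had been seen. Alternatives were ranking by pileup, by −log10 p or by summed folds, other windows and thresholds, filters on −log10 p and on summit position. No test between conditions was made. RNA measurements were not analysed here, and several loci are not reported here.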

Additional observations from a re-analysis of the deposited data

How the results depend on the processing

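No paired analysis was possible because each condition is 1 pooled list, and for the same reason no replicate could be left out. Depth limits single promoters, whose median summit held 11 fragments in NG and 17 in HG+NT. The share that rose was 20.0% by fold, 9.25% by pileup, 12.8% by summed folds and 6% at 50 points or more, and the share that fell was 9.51%, 12.9% and 6.04% under these. By summed folds the medians of chromosomes 8, 15, 19 and X were 4.52, 5.54, 3.09 and 5.53 points. X was at 8.6 by pileup, and Y at −60 by pileup and −26.8 from 1 promoter with its summits inside the window. The cause of these shifts was not tested.

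By pileup, the median changes of insulin signalling, oxidative phosphorylation and endothelial genes were −2.75, 0.984 and −1.93 points, the latter pair being reversed. By summed folds they were −2.31 for insulin signalling, −0.264 for TGF-beta genes, −7.06 for endothelial and −0.508 for leukocyte markers. With −log10 p of at least 1 in both lists they were −2.5 for the basement membrane, −15.7 for glycolysis, 8 for histone, 5.54 for olfactory and 1.38 for vomeronasal genes. At promoters with one summit position they were 33.1 for fibrosis (2 genes), −23 for protein kinase C (3 genes), 9.08 for the cell cycle, 34.9 for keratins (3 genes), 1.42 for olfactory receptors and −19.3 for endothelial markers (1 gene). With summits inside the window they were 22.7 for keratins, −0.267 for olfactory and 2.04 for vomeronasal receptors and −0.00431 for leukocyte markers. Among promoters with a mean percentile above the median they were 14.7 for keratins, 5.63 for olfactory and −11.8 for vomeronasal receptors.

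Insulin signalling, mitochondrial dynamics, autophagy, both ribosomal lists and numbered zinc finger genes had a median below 0, and slit diaphragm, AP-1, protocadherin, mesangial and podocyte defining genes one above 0, in all 11 settings run, the reported one included. Single named genes were less stable. Ranked by pileup, the change of percentile stayed close to the reported one for 2 named genes and moved away for 76. These counts were 8 and 70 by summed folds, 38 and 42 by −log10 p, and 71 and 6 with windows of doubled width. Named genes whose change of percentile reversed included *Cdkn2d* (−12.1), *Epas1* (18.8) and *Hist1h3e* (−4.16) with windows of doubled width, *Col4a1* (6.94) and *Eng* (11.6) by summed folds, and *Fos* (−1.46) and *Podxl* (1.26) by pileup.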
